A study of Mus musculus with 8 samples.

Results

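The 37 genes described here encode factors of the catalytic stage of the spliceosome, together with factors that act just before it and the exon junction complex. They were taken by gene name from the expression table deposited for a Dnajc17 conditional knockout. All 37 names matched 1 row each of the 78317 genes in the table. All 37 also had a mean of at least 1 TPM (transcript abundance scaled by length and to a common library total), the minimum for testing, which 17811 genes met. The tissue was the basilar membrane of the mouse cochlea, on which the hair cells and supporting cells sit, at postnatal day 6. The 4 homo libraries are labelled as a conditional knockout of Dnajc17. The 4 hete libraries carry the genotype label WT, so whether they hold a mutant allele is unclear. The labels do not state the Cre driver, the deleted part of Dnajc17, the strain or the sex. Libraries are numbered 1 to 4 within homo and within hete, and nothing ties each number to a separate animal. The p-values therefore reflect variation among these libraries, part or all of which may be technical.

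The spliceosome removes introns from transcripts in a pair of chemical steps. After the small nuclear ribonucleoproteins have assembled on an intron, the Prp19 complex and its related proteins enter and help to form the catalytic centre. RNA helicases then drive each rearrangement, from activation through both steps to release of the spliced message and disassembly. During splicing the exon junction complex is left on the message upstream of each new exon boundary, where it marks the transcript for export, translation and decay. The protein made from Dnajc17 combines a J domain, the part that engages Hsp70 chaperones, with an RNA-binding domain. Its relative in budding yeast, Cwc23, takes part in spliceosome disassembly with Prp43, the yeast counterpart of Dhx15.

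Dnajc17, the targeted gene, had 29.33, 27.65, 31.08 and 18.04 TPM in homo libraries 1 to 4, against 26.51, 25.45, 25.09 and 22.06 TPM in hete libraries 1 to 4, and its homo mean was not below its hete mean (a log2 difference of 0.07 with SE 0.15; adjusted p = 0.969 in limma-trend over all tested genes). Homo library 4 lay below every hete value, and the other homo libraries lay above every hete value. A gene-level value cannot show whether part of the transcript is missing in a few cells.

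Transcripts of these factors stood at close to the same level in homo and hete, and none of the 37 passed an adjusted p under 0.05 in limma-trend (log2(TPM + 1), homo over hete, adjusted over all tested genes), a threshold that 0.0112% of them passed. The lowest adjusted p among the 37 was 0.429. At an unadjusted p under 0.05, 3 factors were higher in homo (8.11% of the 37) and 0 were lower, beside 3.56% of all tested genes higher and 2.49% lower. That lean over all genes, 634 higher and 444 lower, was not kept under quantile normalization (584 higher, 596 lower) or without hete library 1 (495 higher, 498 lower). The 3 factors with an unadjusted p under 0.05 in limma-trend were Aqr, Rbm22 and Eif4a3. The homo and hete values did not overlap for 3 factors, Aqr, Rbm22 and Dhx38, all with homo above hete. Over all tested genes 2.58% had every homo value above every hete value, and 1.41% had every homo value below. The log2 fold change was above 0 for 29 of the 37, or 78.4%, beside 56.3% of all tested genes and 61.6% of the 7021 tested genes with levels in the same range. Under quantile normalization it was above 0 for 27 of the 37 and 51.3% of all tested genes, and without hete library 1 for 29 of the 37 and 49.1%. Its median was 0.05 over the factors, 0.02 over all tested genes and 0.03 over the genes of the same level range. For 36 of the 37 the 95% interval of the log2 fold change lay within 0.5 of 0, which is a 1.41-fold difference either way. The exception was Isy1. For 29 of them it lay within 0.3 of 0, or 1.23-fold. No such count was made over all tested genes, so these counts describe precision and no trait of the factors. The intervals of the 37, and not the missed threshold, show how far the homo and hete libraries may differ. They rest on the spread among these libraries, so they do not bound a difference between animals. A bulk level cannot tell fewer cells that use a gene from less RNA in each cell.

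**Figure D1:**
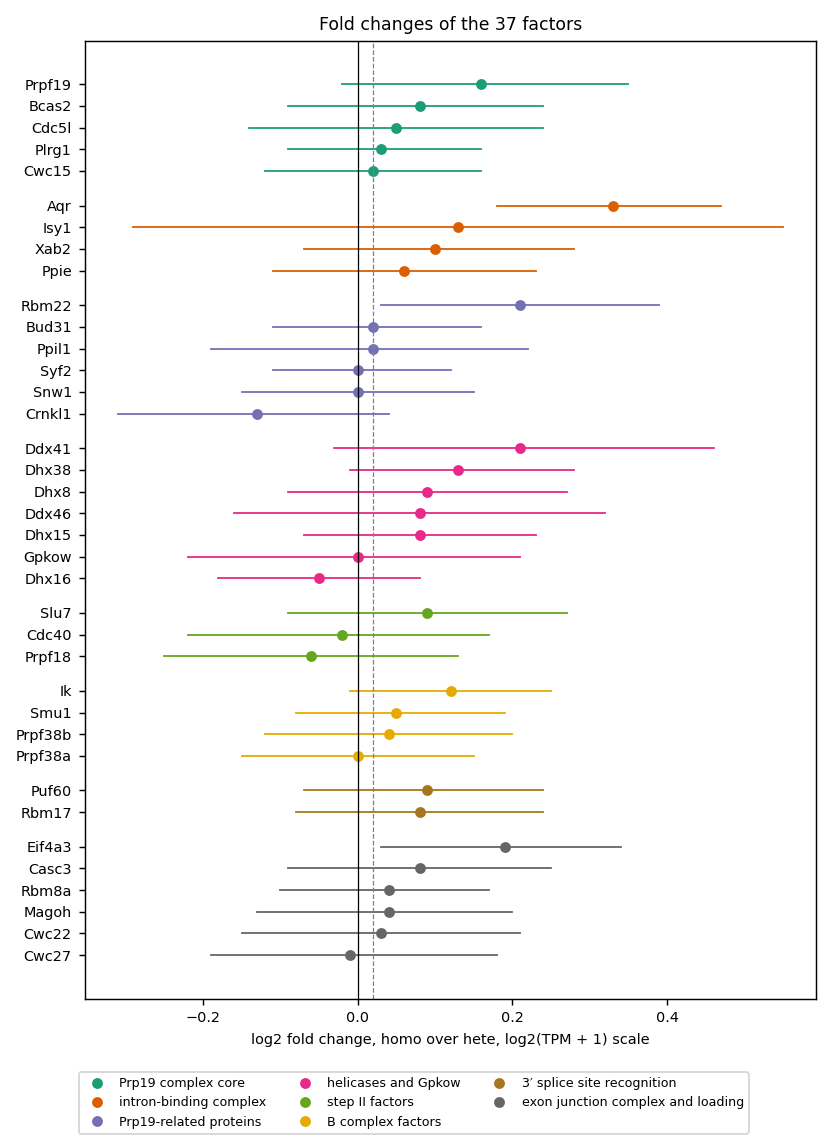
Difference of homo from hete in log2(TPM + 1), the log2 fold change, for the 37 factors, grouped by role, with the 95% interval from limma-trend as a line (n = 4 libraries per group). The solid vertical line marks 0 and the dashed line the median of all tested genes, 0.02. The intervals of Aqr, Rbm22 and Eif4a3 lie to the right of 0, and that of Isy1 is the widest.

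As a set the factors were abundant, and their spread between libraries was close to that of genes at the same level. Their mean over the 8 libraries ran from 18.1 TPM to 168 TPM with a median of 44.7 TPM, against a median of 14.1 TPM over all tested genes. Of the 37, 7 had a mean of at least 100 TPM and 7 a mean under 25 TPM. TPM is scaled by length, so these levels can be set against each other. The spread between libraries of the same group, as the SD on the log2(TPM + 1) scale, had a median of 0.10 over the factors, 0.12 over the tested genes of the same level range and 0.16 over all tested genes. Isy1 was the 1 factor with a spread over 0.2, at 0.31. The summed level of all 37 was 2317, 2274, 2370 and 2206 TPM in homo libraries 1 to 4, against 2155, 2200, 2223 and 2150 TPM in hete libraries 1 to 4. The sums of the groups overlap, because homo library 4 lies below hete library 3.

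**Figure D2:**
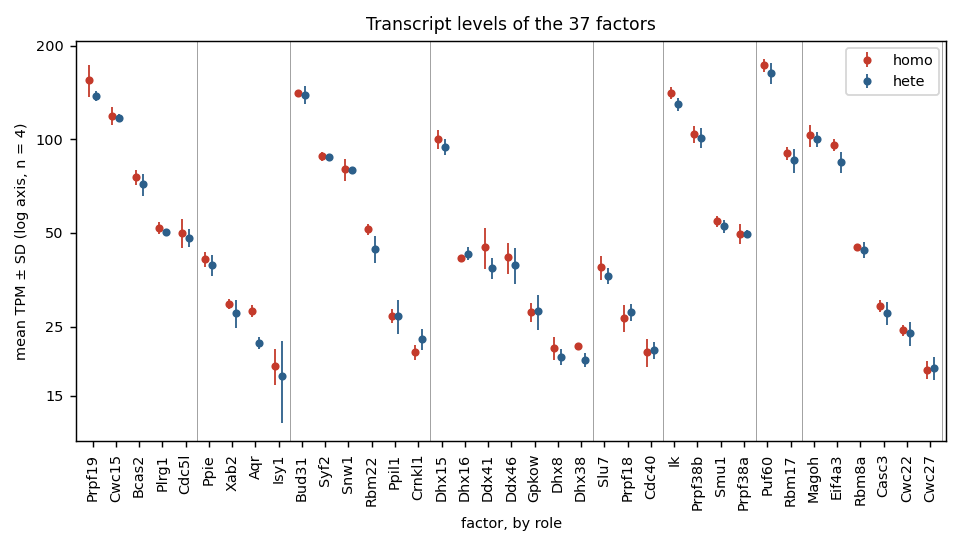
Mean TPM (log axis) of each factor in homo and hete with the SD as a bar (n = 4 libraries per group), ordered by level within each role, with roles in the order of the fold change plot. Puf60, Prpf19, Ik and Bud31 are the highest, Isy1 and Cwc27 the lowest, and for most factors the bars of homo and hete overlap.

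The core of the Prp19 complex stood high and differed little. All 5 of its listed members had a log2 fold change above 0, with a median of 0.05 and none at an unadjusted p under 0.05. Prpf19 (ENSMUSG00000024735, chromosome 19), the ubiquitin ligase that scaffolds the complex, had 157.64, 148.37, 179.01 and 135.36 TPM in homo libraries 1 to 4, against 131.78, 138.88, 143.73 and 137.51 TPM in hete libraries 1 to 4. Homo library 3 was the highest of all 8, while homo library 4 lay within the hete values, so the groups overlap. Its log2 fold change was 0.16 (SE 0.08, adjusted p = 0.87 in limma-trend), and it was 0.09 without homo library 3 and 0.22 without homo library 4, where the unadjusted p was 0.0162. Cdc5l, a Myb-like protein that contacts the RNA of the catalytic centre, averaged 50 ± 5.3 TPM in homo and 48.2 ± 3.14 TPM in hete (SD, n = 4 each). Plrg1, a WD-repeat protein, stood at 51.8 ± 2.31 TPM in homo and 50.5 ± 0.563 TPM in hete. Bcas2 had 75.6 ± 4.07 TPM in homo and 71.7 ± 5.79 TPM in hete. Cwc15 had 119 ± 8.13 TPM in homo and 117 ± 3.3 TPM in hete. The log2 fold changes of these 4 lay between 0.02 and 0.08. Cdc5l has 10 annotated retrocopies that match it at over 95% identity, each listed at 0.02 TPM or less on average, so few reads were assigned away from it.

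Aqr held the largest difference of the set. It encodes the RNA helicase of the intron-binding complex, which sits on the intron near the branch site and also includes Xab2, Isy1 and Ppie. Aqr (ENSMUSG00000040383, chromosome 2) had 29.39, 27.74, 28.44 and 26.66 TPM in homo libraries 1 to 4, against 21.46, 22.8, 23.21 and 21.26 TPM in hete libraries 1 to 4. Every homo value lay above every hete value, with a gap wider than the range of either group. The homo mean was 26.5% above the hete mean, which gave a log2 fold change of 0.33 (SE 0.07, 95% interval 0.18 to 0.47, adjusted p = 0.429 in limma-trend). By unadjusted p, 6.04e-04, it ranked 24 of the 17811 tested genes, and the difference stayed between 0.30 and 0.35 under the 15 other settings. The size of its log2 fold change was larger than that of 91% of tested genes. The other members of the complex were closer to equal. Xab2, a scaffold of helical repeats, averaged 29.6 ± 1.1 TPM in homo and 27.6 ± 2.77 TPM in hete (SD, n = 4 each; log2 fold change 0.10, SE 0.08). Ppie, a prolyl isomerase with an RNA recognition motif, had 37.75, 42.84, 41.73 and 42.2 TPM in homo libraries 1 to 4, against 38.21, 43.61, 39.55 and 36.32 TPM in hete libraries 1 to 4. Its values overlap in full, with a log2 fold change of 0.06 (SE 0.07). Isy1 had 17.42, 21.38, 20.17 and 15.88 TPM in homo libraries 1 to 4, against 12.87, 20.17, 23.33 and 13.42 TPM in hete libraries 1 to 4. It was the most variable factor, with hete libraries 1 and 4 low and hete library 3 the highest of all 8, and its interval ran from -0.29 to 0.55. The annotation holds an overlapping transcript on the same strand, Gm45140, which is identical to Isy1 over 661 bases and averaged 4.31 TPM, so reads may be divided between them. Added together they gave 23.4 ± 2.86 TPM in homo and 21.4 ± 4.82 TPM in hete, and hete libraries 1 and 4 stayed the lowest.

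The promoters of the intron-binding complex are shown because its members include the factor with the largest difference. RefSeq promoter sequences (GRCm38.p6, a build older than the GRCm39 of the submitters' processing notes) were held for 26 of the 37 factors, among them Aqr, Isy1 and Xab2. The 150 bases before each annotated start are printed 5′ to 3′ on the gene's strand. They cover chr2:114175340-114175489 (minus strand) for Aqr, chr6:87838760-87838909 (minus strand) for Isy1 and chr8:3621297-3621446 (minus strand) for Xab2. Capitals mark CCGGAAG, the core letters bound by ETS factors, and CCAAT, the letters of the CCAAT box, on either strand.
Aqr: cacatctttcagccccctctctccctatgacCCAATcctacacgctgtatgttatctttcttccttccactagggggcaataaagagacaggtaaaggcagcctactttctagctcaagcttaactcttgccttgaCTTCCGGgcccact
Isy1: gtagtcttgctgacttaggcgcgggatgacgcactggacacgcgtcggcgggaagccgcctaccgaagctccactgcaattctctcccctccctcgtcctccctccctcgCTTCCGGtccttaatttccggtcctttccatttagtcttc
Xab2: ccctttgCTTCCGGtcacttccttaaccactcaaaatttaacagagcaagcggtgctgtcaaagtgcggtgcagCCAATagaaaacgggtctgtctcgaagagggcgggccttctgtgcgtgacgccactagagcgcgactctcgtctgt
All 3 sequences hold the CCGGAAG letters, as CTTCCGG, and those of Aqr and Xab2 also hold CCAAT. Counted in the 250 bases before the start, on both strands, CCGGAAG occurs in 8 of 26 factor promoters (30.8%), against 12.8% of the promoters of 11700 tested genes. CCAAT occurs in 12 of the 26 (46.2%), against 35.9%. TATAAA occurs in 2 of them, Cdc40 and Cwc27 (7.69%), against 6.5%. The NRF1 letters GCATGCGC occur in 1, Ddx41 (3.85%), against 4.14%. These letters do not overlap each other, and a match describes the sequence without showing that a factor binds there. The factor promoters held more CpG, with a median of 18 in 250 bases against 15 over tested genes. Their median share of G and C was lower, at 56.6% against 60.0%. The tested genes were not matched to the factors by level. Aqr had the fewest CpG of the 26, with 4, while Eif4a3 had 36.

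Among the Prp19-related proteins, which surround the catalytic centre, Rbm22 stood higher in homo, Crnkl1 stood lower, and the other 4 had log2 fold changes within 0.02 of 0. Rbm22 (ENSMUSG00000024604, chromosome 18), whose protein contacts U6 small nuclear RNA and the intron, had 51.42, 48.87, 51.26 and 54.03 TPM in homo libraries 1 to 4, against 38.51, 46.84, 44.05 and 48.3 TPM in hete libraries 1 to 4. The homo and hete values do not overlap, homo being higher, though homo library 2 and hete library 4 lie close together and hete library 1 is the lowest. The homo mean was 15.7% higher, with a log2 fold change of 0.21 (SE 0.08, 95% interval 0.03 to 0.39, adjusted p = 0.758 in limma-trend). Its unadjusted p was above 0.05 without hete library 1 or homo library 4, with 0.0619 as the highest. Bud31, the most abundant of the group, had 141.18, 144.73, 136.49 and 142.82 TPM in homo libraries 1 to 4, against 150.63, 132.87, 131.23 and 141.92 TPM in hete libraries 1 to 4. Its homo values fall inside the hete range, and the log2 fold change was 0.02 (SE 0.06). Syf2 averaged 88.1 ± 3.22 TPM in homo and 87.8 ± 1.88 TPM in hete (SD, n = 4 each). Snw1, also a co-regulator of transcription, averaged 80 ± 6.68 TPM in homo and 79.9 ± 1.65 TPM in hete. Ppil1, a cyclophilin of the spliceosome, stood at 27.1 ± 1.35 TPM in homo and 27 ± 3.4 TPM in hete. The log2 fold changes of Syf2, Snw1 and Ppil1 were 0.00, -0.00 and 0.02, with 95% intervals of -0.11 to 0.12, -0.15 to 0.15 and -0.19 to 0.22. Crnkl1, a scaffold of helical repeats, had the lowest log2 fold change of all 37, with 20.7 ± 1.14 TPM in homo and 22.8 ± 1.81 TPM in hete (-0.13, SE 0.08; adjusted p = 0.87 in limma-trend).

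**Figure D3:**
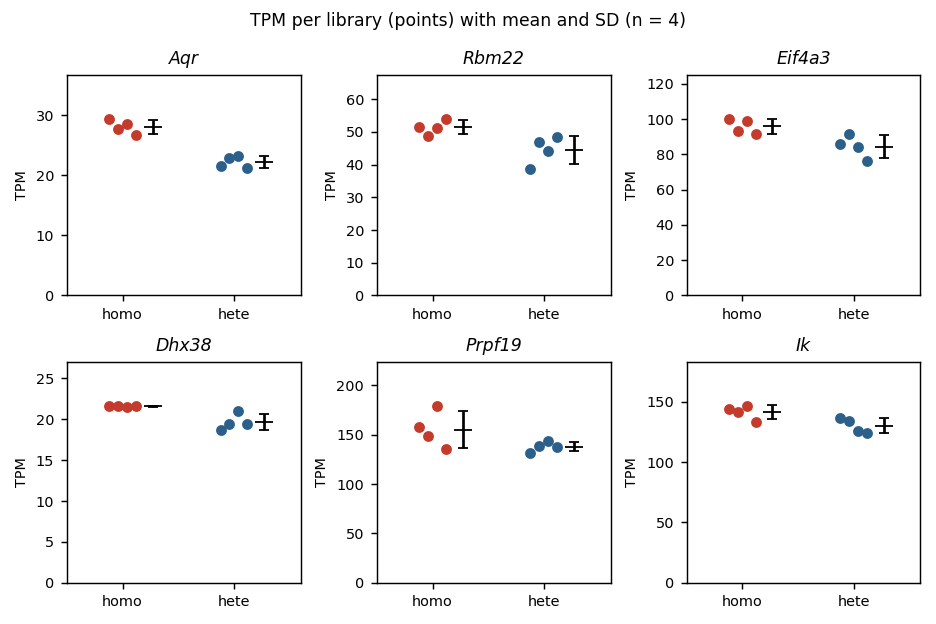
TPM of 6 factors in each library (points, libraries 1 to 4 from left to right within a group) with the mean and SD beside them (n = 4 per group), homo left of hete. These are the 4 factors with an unadjusted p under 0.05 or no overlap, Aqr, Rbm22, Eif4a3 and Dhx38, and 2 with the smallest p of their role, Prpf19 and Ik. The groups are apart for Aqr, Rbm22 and Dhx38 and overlap for the others.

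The helicases work in order along the pathway, and none of the 6 or their partner Gpkow reached an unadjusted p under 0.05. Ddx46, which acts early on the U2 particle at the branch site, averaged 41.8 ± 4.79 TPM in homo and 39.6 ± 5.24 TPM in hete (SD, n = 4 each; log2 fold change 0.08, SE 0.11). Its log2 fold change ran from 0.01 without homo library 3 to 0.16 without hete library 4. Dhx16, which activates the spliceosome before the first step, averaged 41.4 ± 0.728 TPM in homo and 42.9 ± 2.05 TPM in hete (-0.05, SE 0.06). Gpkow, a protein that binds DHX16 in human cells, stood at 27.8 ± 1.99 TPM in homo and 28 ± 3.53 TPM in hete (-0.00, SE 0.10). Dhx38, which acts between the steps, was the most even of all 37 within homo. It had 21.57, 21.61, 21.47 and 21.62 TPM in homo libraries 1 to 4, against 18.65, 19.44, 20.99 and 19.39 TPM in hete libraries 1 to 4. The groups do not overlap, with homo higher and hete library 3 the nearest to it, and the log2 fold change was 0.13 (SE 0.07, adjusted p = 0.864 in limma-trend). Dhx8, which releases the spliced message, averaged 21.4 ± 1.82 TPM in homo and 20 ± 1.13 TPM in hete (0.09, SE 0.08). Dhx15, which takes the spliceosome apart and is the counterpart of the yeast partner of Cwc23, was the most abundant of these 6 helicases. It had 110.05, 96.47, 100.1 and 94.91 TPM in homo libraries 1 to 4, against 92.12, 88.45, 97.91 and 100.57 TPM in hete libraries 1 to 4. Homo library 1 was the highest and the rest overlap (log2 fold change 0.08, SE 0.07, 95% interval -0.07 to 0.23). Ddx41, a helicase found with catalytic spliceosomes, averaged 45.1 ± 6.78 TPM in homo and 38.5 ± 3.02 TPM in hete (0.21, SE 0.11; adjusted p = 0.869 in limma-trend). Its higher homo mean came from libraries 2 and 3, at 49.36 and 52.33 TPM, while libraries 1 and 4, at 38.25 and 40.57 TPM, lay within the hete range.

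The step II factors, which position the exons for the second step, lay on both sides of 0. Slu7 had 42.81, 36.13, 40.66 and 35.61 TPM in homo libraries 1 to 4, against 33.63, 37.03, 35.95 and 39 TPM in hete libraries 1 to 4. Homo libraries 1 and 3 were above all hete values and homo libraries 2 and 4 were not (log2 fold change 0.09, SE 0.08). Prpf18 averaged 26.7 ± 2.68 TPM in homo and 27.8 ± 1.7 TPM in hete (SD, n = 4 each; -0.06, SE 0.08). Cdc40 averaged 20.7 ± 2.09 TPM in homo and 21 ± 1.29 TPM in hete (-0.02, SE 0.09). In all 3, homo library 1 was the highest of the homo libraries and homo library 4 the lowest.

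None of the 4 factors of the earlier B complex, in which the assembled particle waits for activation, reached an unadjusted p under 0.05, and Ik had the smallest. Ik (ENSMUSG00000024474, chromosome 18), a partner of Smu1, had 143.73, 141.15, 146.42 and 133.1 TPM in homo libraries 1 to 4, against 136.75, 133.94, 125.79 and 123.79 TPM in hete libraries 1 to 4. Homo libraries 1 to 3 lay above all hete values and homo library 4 did not (log2 fold change 0.12, SE 0.06, adjusted p = 0.867 in limma-trend). Smu1 averaged 54.6 ± 2.28 TPM in homo and 52.6 ± 2.52 TPM in hete (SD, n = 4 each; 0.05, SE 0.06). Prpf38a stood at 49.8 ± 3.57 TPM in homo and 49.7 ± 1.55 TPM in hete (-0.00, SE 0.07). The related Prpf38b had 104 ± 6.35 TPM in homo and 101 ± 7.5 TPM in hete (0.04, SE 0.07). Both proteins of 3′ splice site recognition were abundant. Puf60, which binds the uridine-rich tract before the site, had 160.48, 175.83, 176.23 and 178.55 TPM in homo libraries 1 to 4, against 155.7, 177.34, 168.68 and 150.18 TPM in hete libraries 1 to 4. Homo library 1 stands below the other homo libraries, and the groups overlap (0.09, SE 0.07). Rbm17, which acts in the choice of 3′ splice site, averaged 90.4 ± 4.3 TPM in homo and 85.5 ± 7.29 TPM in hete (0.08, SE 0.07).

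Of the exon junction complex and its loading factors, Eif4a3 alone had an unadjusted p under 0.05 in limma-trend. Eif4a3 (ENSMUSG00000025580, chromosome 11), the helicase that clamps the complex on RNA, had 100.29, 93.55, 98.78 and 91.47 TPM in homo libraries 1 to 4, against 85.91, 91.66, 84.02 and 76.22 TPM in hete libraries 1 to 4. The groups overlap by a single pair, since hete library 2 lies just above homo library 4, and hete library 4 is the lowest. The homo mean was 13.7% higher, with a log2 fold change of 0.19 (SE 0.07, 95% interval 0.03 to 0.34, adjusted p = 0.745 in limma-trend). Its unadjusted p was above 0.05 without hete library 4, homo library 1 or homo library 3, with 0.0559 as the highest. Magoh, which locks the clamp together with Rbm8a, had 99.07, 106.6, 92.93 and 112.17 TPM in homo libraries 1 to 4, against 107.31, 99.04, 94.09 and 99.64 TPM in hete libraries 1 to 4. Its values overlap, with the highest and the lowest both in homo (0.04, SE 0.07). Rbm8a averaged 45.2 ± 0.913 TPM in homo and 44.2 ± 2.59 TPM in hete (SD, n = 4 each; 0.04, SE 0.06). Casc3, the outer subunit, averaged 29.2 ± 1.31 TPM in homo and 27.7 ± 2.39 TPM in hete (0.08, SE 0.08). The transcripts of these core subunits were therefore not at equal levels: Magoh and Eif4a3 were highest and Casc3 lowest in both groups. Cwc22, which brings Eif4a3 to the spliceosome, stood at 24.3 ± 1.03 TPM in homo and 23.8 ± 2.14 TPM in hete (0.03, SE 0.08). Cwc27, a partner of Cwc22, had 18.2 ± 1.22 TPM in homo and 18.4 ± 1.51 TPM in hete (-0.01, SE 0.08). Summed over these 6, the level was 319, 315, 309 and 320 TPM in homo libraries 1 to 4, against 306, 306, 291 and 291 TPM in hete libraries 1 to 4. The sums do not overlap, by a narrow margin between homo library 3 and hete libraries 1 and 2. How often sums of other gene lists are apart was not counted, so this describes the values and no trait of the role. Eif4a3 alone holds much of the difference, and 0 of the 6 members had homo and hete values that were apart. Annotated copies of Eif4a3, Rbm8a and Cwc22 with at least 95% identity were nearly silent, the highest being Rbm8a2 at 0.28 TPM.

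**Figure D4:**
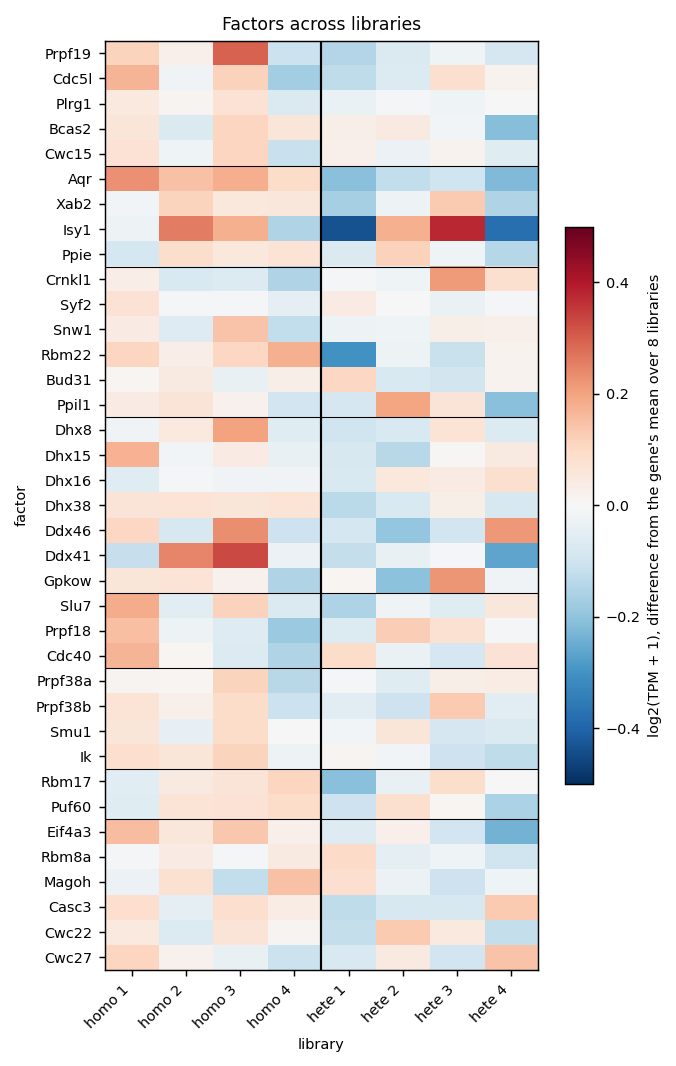
Level of each factor in each library as the difference from its own mean over the 8 libraries on the log2(TPM + 1) scale (red higher, blue lower), with homo libraries left of the vertical line, hete libraries right of it, and roles separated by horizontal lines. Homo libraries 1 and 3 are red in most rows and homo library 4 is blue in many, so the factors differ between homo libraries as well as between the groups.

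The level of the factors as a set varied between libraries, also within a group. The median difference of the 37 from their own means was 0.06, 0.02, 0.07 and -0.04 in homo libraries 1 to 4, against -0.07, -0.03, -0.01 and -0.02 in hete libraries 1 to 4, on the log2(TPM + 1) scale. Homo library 4 thus sat with the hete libraries. Over all tested genes the same medians were 0.05, -0.01, 0.02 and -0.02 in homo libraries 1 to 4, against -0.08, -0.01, 0.02 and 0.03 in hete libraries 1 to 4. The shifts of the factors in homo library 1 and hete library 1 were thus close to those of all tested genes. Of the 37, 11 had their highest value in homo library 3 and 8 in homo library 1, while 11 had their lowest in homo library 4, 11 in hete library 1 and 9 in hete library 4. With each library left out in turn, 27 (without homo library 1) to 33 (without homo library 4) of the 37 had a log2 fold change above 0. Of all tested genes, 52.2% were above 0 without homo library 1 and 58.5% without homo library 4.

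Levels of cell type markers also differed between libraries and, for some lists, between the groups. The sum of 10 cell cycle genes was 199, 206, 205 and 177 TPM in homo libraries 1 to 4, against 182, 181, 179 and 157 TPM in hete libraries 1 to 4, and all 10 had a log2 fold change above 0. The libraries lowest in their group for this sum were homo library 4 and hete library 4. The sum of 12 supporting cell markers ran from 7264 to 7582 TPM in homo and from 6399 to 7103 TPM in hete. These sums do not overlap. The sum of 18 hair cell markers ran from 415 to 591 TPM in homo and from 547 to 739 TPM in hete. Of the 18, 4 had a log2 fold change above 0. Above 0 were also 8 of the 12 supporting cell, 11 of the 12 neuronal, 9 of the 10 glial, 6 of the 8 mesenchymal and 2 of the 6 endothelial markers. Of the blood markers that could be tested, 0 of 5 erythroid and 4 of 4 granulocyte genes were above 0. The share over all tested genes was 56.3%. Neuronal (12 genes, 453 to 678 TPM in homo, 392 to 558 TPM in hete), Schwann and satellite glial (10 genes, 864 to 1786 TPM in homo, 888 to 1503 TPM in hete), mesenchymal (8 genes, 3061 to 3707 TPM in homo, 3117 to 3439 TPM in hete) and endothelial markers (6 genes, 186 to 226 TPM in homo, 177 to 236 TPM in hete) were present in every library. Blood markers were present too, with 6 erythroid genes at 3113 to 4076 TPM in homo and 2467 to 5330 TPM in hete, and 6 granulocyte genes at 11.2 to 58 TPM in homo and 5.65 to 8.49 TPM in hete. The granulocyte sums do not overlap, with the 58 TPM in homo library 1. How often sums of such lists are apart was not counted. No marker of these lists was at 0 in all 8 libraries; the hair cell and supporting cell markers of the labelled tissue were thus present. The part of these differences in the levels of the splicing factors was not tested.

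On the chromosomes, 5 of the 37 factors lie on chromosome 2, as does Dnajc17, and Aqr is the nearest. In the GENCODE M21 gene order 33 steps between tested genes separate Aqr from Dnajc17, against 199 for Cwc22, 216 for Crnkl1, 638 for Rbm17 and 673 for Prpf18. Among the 67 tested genes in the window centred on Dnajc17 that just reaches Aqr, 8 (11.9%) had an unadjusted p under 0.05 in limma-trend, Aqr included. The share was 8.33% of the other 1212 tested genes of chromosome 2 and 5.86% of the 16532 tested genes not placed on it. The median size of the log2 fold change was 0.09 in each of the 3 sets. The next tested genes on the Dnajc17 side of Aqr, Zfp770 and Dph6, differed little, with -0.09 (SE 0.10) for Zfp770 and 0.03 (SE 0.08) for Dph6. Whether the position of Aqr bears on its level was not tested. Without the 5 factors of chromosome 2, the median log2 fold change of the other 32 was 0.06 and 2 were left with an unadjusted p under 0.05.

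Partner proteins outside the 37 were counted in a pair of lists. Of 43 catalytic-stage partners, 0 passed the adjusted threshold in limma-trend. At an unadjusted p under 0.05, 4 were higher (9.3%) and 1 was lower (2.33%), beside the 3.56% and 2.49% of all tested genes. Their median log2 fold change was 0.05. Cherp, which binds the U2 particle, had 41.5, 42.33, 54.15 and 39.91 TPM in homo libraries 1 to 4, against 30.73, 33.02, 37.42 and 39.2 TPM in hete libraries 1 to 4. The groups do not overlap, by a narrow margin between homo library 4 and hete library 4, and homo library 3 stands highest (0.33, SE 0.11; adjusted p = 0.71 in limma-trend). Snrnp200, the helicase that unwinds the U4 and U6 RNAs, had 47.67, 49.38, 48.39 and 48.04 TPM in homo libraries 1 to 4, against 42.14, 42.22, 44.55 and 43.2 TPM in hete libraries 1 to 4. These groups are clearly apart, though the difference is small (0.17, SE 0.05; adjusted p = 0.694 in limma-trend). Snrnp200 is on chromosome 2 as well. Rbmx2, a spliceosomal RNA-binding protein, had a log2 fold change of 0.26 (SE 0.11). Wdr83, a WD-repeat protein, and Sugp1, a branch site protein, had every homo value above every hete value, with log2 fold changes of 0.13 (SE 0.07) and 0.11 (SE 0.06). Their unadjusted p-values in limma-trend were 0.089 and 0.114. Every homo value lay above every hete value for 4 of the 43 (9.3%), beside 2.58% of all tested genes. Every homo value lay below for 1 (2.33%), beside 1.41%. Prpf8, the protein that holds the catalytic RNA, stood at 69 ± 3.59 TPM in homo and 64.7 ± 3.65 TPM in hete (SD, n = 4 each; 0.09, SE 0.07). Tfip11, the activator of Dhx15, averaged 23 ± 1.63 TPM in homo and 23.8 ± 1.51 TPM in hete (-0.05, SE 0.08).

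Mfap1a and Mfap1b, neighbouring copies on chromosome 2 whose protein joins Smu1, Ik and Prpf38a in the B complex, differed in opposite directions. Mfap1a had 24.27, 23.2, 24.7 and 20.89 TPM in homo libraries 1 to 4, against 27.53, 26.08, 27.15 and 30.05 TPM in hete libraries 1 to 4, so every homo value was below every hete value (-0.24, SE 0.08; adjusted p = 0.687 in limma-trend). Mfap1b had 45.76, 41.53, 40.95 and 40.53 TPM in homo libraries 1 to 4, against 33.87, 35.67, 36.13 and 40.83 TPM in hete libraries 1 to 4, with an overlap only at hete library 4 (0.20, SE 0.07; adjusted p = 0.758 in limma-trend). Their transcripts are 99.3% identical over 2328 bases, so reads may not be separable between them. Added together they gave 65.5 ± 3.55 TPM in homo and 64.3 ± 4.44 TPM in hete (SD, n = 4 each), and these sums overlap. They lie 56 and 55 tested genes from Dnajc17.

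The 16 partners of the exon junction complex, which include the core decay factors, gave a median log2 fold change of -0.02. Of them 7 had a value above 0 (43.8%), beside 56.3% of all tested genes. An unadjusted p under 0.05 in limma-trend was reached by 0 in either direction, beside 3.56% of all tested genes higher and 2.49% lower. With 16 partners, 0 is close to those shares, so it is no result about them. Magohb, the close paralog of Magoh, averaged 20.4 ± 3.04 TPM in homo and 18.9 ± 2.79 TPM in hete (SD, n = 4 each; 0.10, SE 0.13), well below Magoh in both. Upf1, the helicase of nonsense-mediated decay, averaged 32.5 ± 1.23 TPM in homo and 33.5 ± 2.08 TPM in hete (-0.04, SE 0.07). The export factor Alyref, which joins the message during splicing, averaged 37.1 ± 3.15 TPM in homo and 38.1 ± 3.64 TPM in hete (-0.03, SE 0.09). The gene ontology table the authors deposited for homo against hete lists 387 terms, and 0 of the 37 factors are named among the genes of any term. The share of all tested genes that the terms name was not counted, so this 0 cannot be read as a result about the factors.

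Exons of 10 of the 37 factors overlap an exon of another gene with a mean of at least 1 TPM in the GENCODE M21 annotation. The library kit keeps the strand, but no source used here says whether counting made use of it. The overlap lies on the opposite strand for 9 of them, among them Smu1, which shares 608 bases with the chaperone gene Dnaja1 at 289 TPM, and Snw1, which shares 2403 bases with Slirp at 24.8 TPM. Levels of these factors may hold reads of the other gene. Neither Aqr, Rbm22, Eif4a3 nor Dhx38 has such an overlap.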

How the data were processed

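RNA of the basilar membrane was measured in 4 homo and 4 hete libraries. The authors deposited TPM per gene, rounded to 2 decimals and adding up to 1000000 within 1 in each library. They also deposited a gene ontology table with a p-value and an adjusted p-value per term, and numbers of splicing events. Per the submitters' processing notes, fastp, HISAT2, StringTie, RSEM, DESeq2 and GRCm39 were used, with no versions or roles. TPM keeps no depth, so no counting interval was computed.

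The design foresaw a count test or, for TPM, limma-trend, and limma-trend was applied: log2(TPM + 1), a minimum mean of 1 TPM per gene, genotype as the only term, robust eBayes (limma 3.58.1, R 4.3.3), with Benjamini-Hochberg adjustment over all 17811 genes and a threshold of 0.05. The steps were tested on simulated data whose planted changes were larger than any difference among the 37 factors. That test does not cover differences of their size. Fold changes understate those of low genes. The members, the role groups, the partner and marker lists were chosen with earlier results of these data known, so lists get counts and medians but no test. All 37 factors are named; values per library are given for those with an unadjusted p under 0.05 or no overlap, and for the smallest p and highest level of each role, and, chosen after its values were seen, for Isy1. Partners were named by the same p and overlap rule, others after their values were seen. Copies were sought with blastn 2.17.0 (GENCODE M21 transcripts, at least 95% identity over 300 bases). Figures used matplotlib 3.10.9.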

Additional observations from a re-analysis of the deposited data

Results flagged for a closer look

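Puf60 stood at 160.48 TPM in homo library 1, while the other homo libraries held 175.83 to 178.55 TPM. Its gap to the nearest library, divided by the range of the group, was 0.85, above Dixon's 95% critical value for 4 samples. It was the 1 case in 76 groups examined, where chance gives about 1 in 20.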

How the results depend on the processing

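No factor passed the adjusted threshold under any of 15 other settings (lowest adjusted p 0.357), and the median log2 fold change of the 37 stayed between 0.03 (quantile normalization) and 0.06. Aqr kept an unadjusted p under 0.05 in all 15. Eif4a3 lost it without hete library 4, homo library 1 or homo library 3, and Rbm22 without hete library 1 or homo library 4. It was also reached by Ik without hete library 1 or homo library 4, Prpf19 without homo library 4, Dhx38 without hete library 3 and Ddx41 without homo library 1. The number of factors under it ran from 2 to 4, with Crnkl1 added on the lower side under quantile normalization. Over all genes, 2 were called, 1 with no filter on low values, 1 with the replicate block, and 1 to 5 with each library left out. The partner count of 5 ran from 3 to 6 with each library left out. With the replicate block, 4 factors were under an unadjusted p of 0.05 in limma-trend, Ddx41 added. The labels tie same-numbered libraries by their number alone. Deviations of same-numbered libraries correlated at -0.0837, -0.026, 0.0491 and 0.00785, and replicate 3 alone correlated best with its own number. Such low values cannot show that the libraries are unpaired. The sign was the same under all settings for 25 factors. For 12 near 0 it turned: with quantile normalization Syf2 was at -0.03 and Ppil1 at -0.01, and with rescaling over protein-coding nuclear genes Syf2 was at -0.00. With each library left out, the log2 fold change ran from 0.00 to 0.06 for Bud31 (-0.00 without hete library 3), -0.08 to 0.02 for Cdc40, -0.00 to 0.11 for Cdc5l, -0.01 to 0.06 for Cwc15, -0.00 to 0.08 for Cwc22, -0.04 to 0.04 for Cwc27, -0.07 to 0.07 for Gpkow, -0.01 to 0.08 for Magoh, -0.05 to 0.08 for Ppil1, -0.04 to 0.04 for Prpf38a, -0.05 to 0.04 for Snw1 and -0.02 to 0.02 for Syf2. That of Dnajc17 ran from -0.01 without homo library 3 to 0.24 without homo library 4. In the latter fit its unadjusted p was 0.0229 and its adjusted p 0.719 in limma-trend. The cause was not tested. Depth is unknown, and with 4 libraries a group the intervals bound the precision.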

Other observations

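The authors' deposited table of splicing events for homo against hete lists, with junction reads alone, 1884 skipped exons, 611 retained introns, 312 alternative 5′ splice sites, 435 alternative 3′ splice sites and 288 mutually exclusive exons, 3530 events in all. No source used here states the caller or the threshold. The table names no gene and no library, so these events cannot be set beside single factors.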
